A study of Passer montanus with 72 samples.

Results

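Cadherins, protocadherins and catenins were followed in the brain of the Eurasian tree sparrow (Passer montanus). Members were the genes whose symbol begins with CDH and a digit, PCDH, CELSR, DCHS or CTNN, or is FAT1, FAT2, FAT3 or FAT4. Rows on the sequence that carries SMAD2, the Z chromosome, were to be left out, and 0 of the matching rows lay there. This gave 47 of the 21957 genes in the count table. The rule uses only names and position, but the members were chosen with earlier results of these data known.

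Cadherins are cell-surface proteins that bind a matching cadherin on the neighbouring cell in the presence of calcium, and in the brain they sort neurons into nuclei, guide axons and set up synapses. Classical cadherins hold beta-catenin and p120-type catenins with their inner tail, and alpha-catenin links that complex to actin. Delta-protocadherins contact the WAVE actin regulators, CELSR proteins and the giant FAT and DCHS cadherins act in planar cell polarity, and beta-catenin also carries the Wnt signal to the nucleus.

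RNA was sequenced from 3 regions of 24 wild-caught birds kept in captivity, 11 labelled female and 13 labelled male. Each bird gave 1 library from caudal hippocampus (called dorsal in the series' design text), 1 from rostral hippocampus and 1 from striatum. The title of the series names neophobia, the avoidance of new things, but the labels give no behaviour for a bird, so regions, sexes and birds were compared here. The labels used here give no age or treatment, and all groups share capture and captivity.

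Total counts ran from 2629433 to 5323201 per library, with a median of 4071234, and the members held 0.511 to 0.701% of them. Marker levels separated striatum from hippocampus. All 8 tested medium spiny neuron markers were higher in striatum. Their summed levels were 2300 to 4505 CPM (counts set to the same total in each library, with TMM factors) there and 139 to 390.2 in the hippocampal libraries. All 5 tested markers of pallial glutamatergic neurons were lower in striatum, at 39.0 to 606.3 CPM against 1065 to 2058. The striatum library of bird 6 held the 606.3 CPM, and the next highest striatum library had 101.8. The marker lists were chosen with earlier results of these data known. DRD2 and ISL1 did not pass a filter on low counts within either hippocampal part, nor NEUROD2 and NEUROD6 within striatum. These markers entered the test through the region where they were high. The striatum library of bird 11 stood apart, with a count in 7718 genes where the library richest in detected genes had one in 11547. The counts of the W chromosome went against the label of bird 260: its 3 libraries labelled female had 22.96 to 27.98 CPM, the other females 1779 to 2331 and the males 8.58 to 47.1. Bird 260 was kept in the group its label gives. In bulk tissue, fewer cells of a type and less RNA per cell cannot be told apart.

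Per kilobase of the listed gene length, beta-catenin (CTNNB1) was the most abundant member, at 448.5 CPM per kb averaged over the 72 libraries. The neuronal alpha-catenin CTNNA2 followed at 126 CPM per kb and CDH2, or N-cadherin, at 79.1. Every other member lay below these 3. PCDH1 led the delta-1 protocadherins at 56.5 CPM per kb, and CDH10 led the type II classical cadherins at 56.4, with CDH8 at 45.6 and CDH11 at 39.5. CTNNBL1, a nuclear protein that carries the catenin name but is no adhesion catenin, had 46.5 CPM per kb. PCDH10 led the delta-2 protocadherins at 16.6, FAT1 the giant cadherins at 12.4 and PCDH20 the remaining protocadherins at 9.01. CELSR3 led the CELSR, or flamingo, cadherins at 5.53 CPM per kb, and CDH13 the remaining cadherins at 2.47. Summed over members, catenins made up 43.1% of the mean CPM, type II cadherins 15.1%, delta-1 protocadherins 13.4% and delta-2 protocadherins 8.13%. PCDH9 was not ranked, since its listed length of 262416 bases is far above the next longest, FAT3 with 21083.

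A filter on low counts kept 41 members for testing, and 6 were left out. FAT2 had 93 counts over all libraries, CTNNA3 69, CDH19 68, PCDH12 34, CDH17 11 and CDH15, the muscle cadherin, 10. Levels of these 6 were too low for a comparison at this depth. FAT4 and CDH5 passed the filter although fewer than 11 striatum libraries reached its count minimum. The strand setting of the counts is not given in the sources used here. From start to end, 9 members overlap another gene, such as CTNNA1 with LRRTM2, CTNNA2 with LRRTM1, CELSR2 with PSRC1 and CDH23 with VSIR. Whether reads were shared between such genes was not tested.

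Striatum and hippocampus differed in most members, and in both directions. FAT1 was 3.30-fold and CDH20 3.27-fold higher in striatum, and beta-catenin 2.03-fold, while CDH22, PCDH15, PCDH20 and CDH23 had between 0.157 and 0.238 of their hippocampal level there. Against the mean of both hippocampal parts, type II cadherins were mostly higher in striatum, and the 3 CELSR genes were all lower. Of the 41 members tested, 35 passed an adjusted p under 0.05 (edgeR's quasi-likelihood test over 9754 genes with bird as a block), against 64.5% of all genes. Of these, 13 members were higher in striatum (30.9% of all genes) and 22 lower (33.6% of all genes). A log2 fold of at least 1 in either direction was reached by 13 of the called members, where 15.3% of all genes were called at that size. The median absolute log2 fold was 0.63 over the members and 0.35 over all genes.

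**Figure D1:**
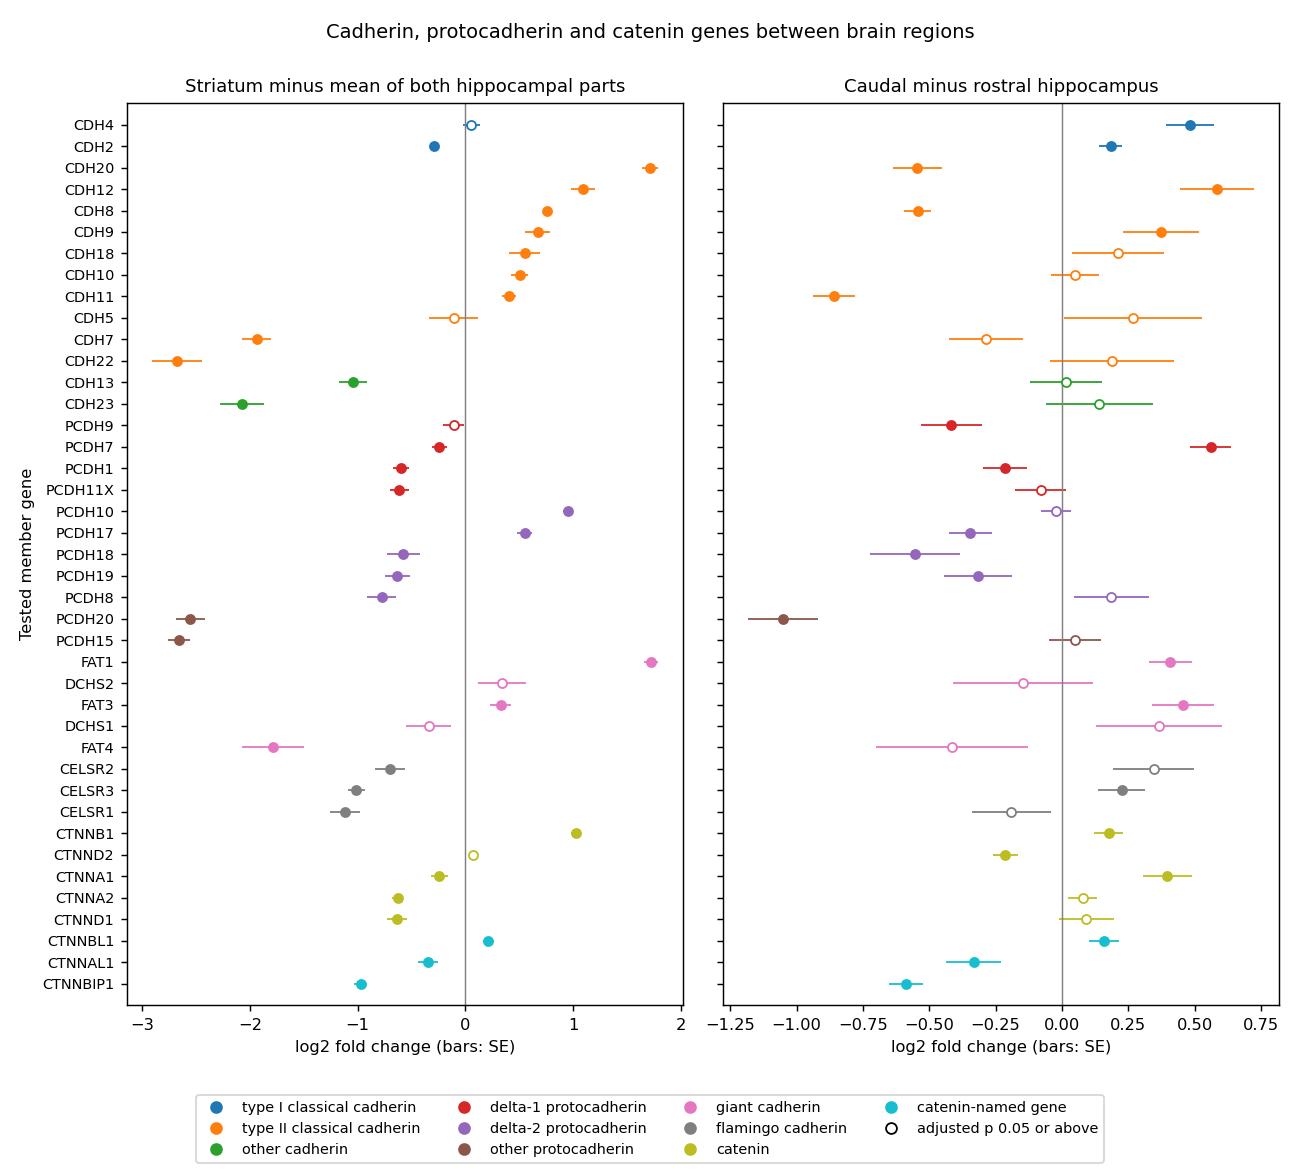
Log2 fold (points) with its standard error (bars) of the 41 tested members for striatum minus hippocampus (left) and caudal minus rostral hippocampus (right), coloured by subfamily; open points had an adjusted p of 0.05 or more. The folds on the left run from -2.67 (CDH22) to 1.72 (FAT1), and those on the right from -1.05 (PCDH20) to 0.58 (CDH12).

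Type II cadherins are the classical cadherins that vary most among brain nuclei. CDH20 had 33.2 to 118 CPM in striatum with a median of 83.6, 15.0 to 28.0 with a median of 20.3 in caudal hippocampus, and 18.6 to 42.9 with a median of 30.7 in rostral hippocampus. The lowest striatum value was that of bird 11, and every other striatum library lay above all hippocampal libraries. The log2 fold of CDH20 was 1.71 ± 0.07 (SE, adjusted p = 2.42e-27), higher in striatum in 24 of 24 birds. CDH8 had 206 to 386 CPM in striatum (median 295) against 98.02 to 195 (median 152) in caudal and 148 to 259.8 (median 226) in rostral hippocampus, a log2 fold of 0.76 ± 0.04 (adjusted p = 6.6e-23). CDH8 was higher in striatum in all 24 birds, although the ranges of striatum and rostral hippocampus overlapped. CDH12 was a low member with medians of 19.1, 9.68 and 7.34 CPM in striatum, caudal and rostral hippocampus, and rose by 1.09 ± 0.11 (adjusted p = 1.43e-12).

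Striatum also exceeded the mean of both hippocampal parts in CDH9 (log2 fold 0.67), CDH18 (0.55), CDH10 (0.50) and CDH11 (0.41). CDH11 differed between the parts by -0.86 (caudal minus rostral), so its value does not place striatum above the rostral part. CDH22, by contrast, had 2.86 to 25.2 CPM in striatum (median 15.1), 10.3 to 175 in caudal (median 96.8) and 9.24 to 268 in rostral hippocampus (median 86.3). It was lower in striatum than in the bird's own hippocampus in 24 of 24 birds, with a log2 fold of -2.67 ± 0.23 (adjusted p = 5.12e-15), yet its hippocampal range reached down into the striatal one. CDH7 fell too, from medians of 14.7 CPM in caudal and 18.0 in rostral hippocampus to 4.36 in striatum, a log2 fold of -1.94 ± 0.14 (adjusted p = 4.06e-18). CDH5, the cadherin of endothelial junctions, did not pass the test, at -0.11 ± 0.23 (adjusted p = 0.694). Its highest value, 13.4 CPM, came from the striatum library of bird 11. So, against the mean of both hippocampal parts, 7 of the 10 type II members tested rose in striatum and 2 fell.

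**Figure D2:**
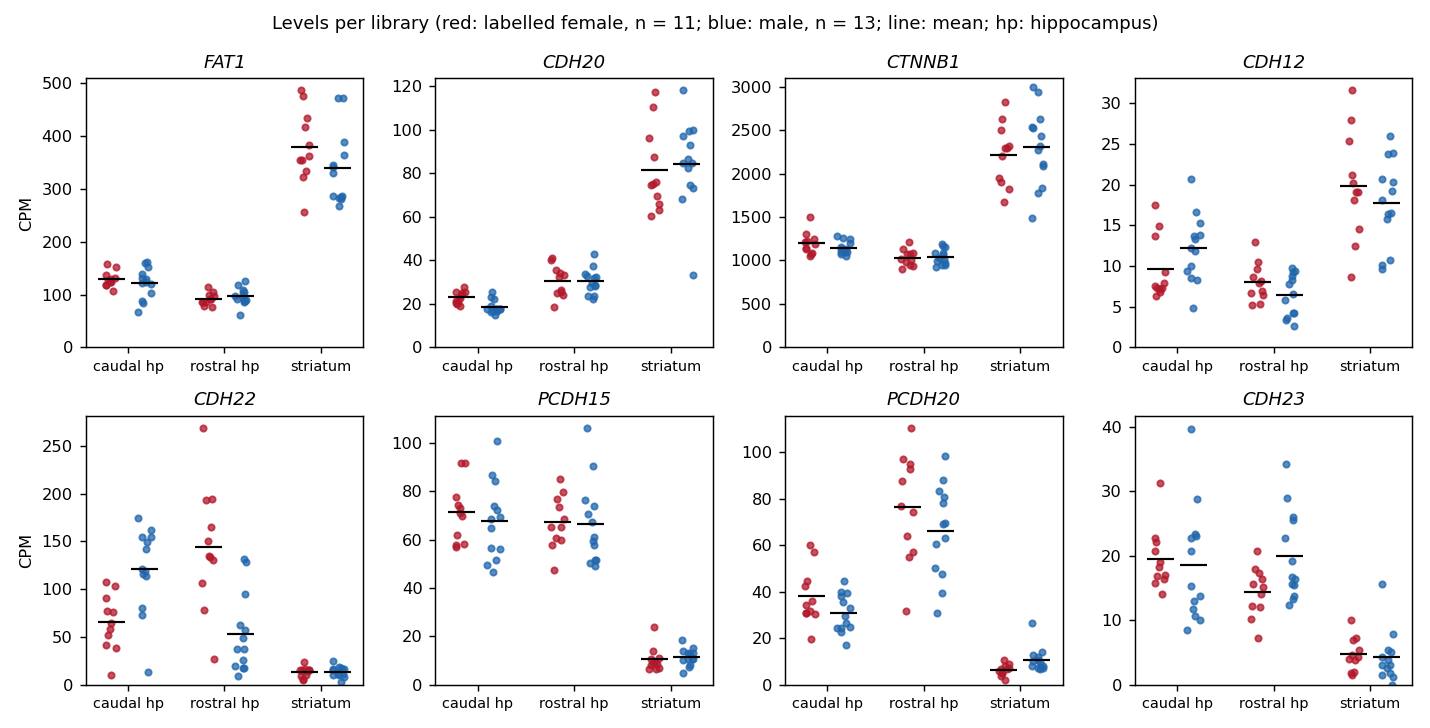
Level in CPM of 8 members in each library of caudal hippocampus, rostral hippocampus and striatum. Points are libraries (red, 11 birds labelled female, and blue, 13 labelled male), and lines are the means of each labelled sex in a region. FAT1 in striatum starts at 256 CPM, above its hippocampal maximum of 161, and PCDH15 in striatum ends at 24.1 CPM, below its hippocampal minimum of 46.5.

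Giant cadherins are very long proteins that bind one another across cell borders. FAT1 had 256 to 487 CPM in striatum with a median of 349.6. It had 67.9 to 161 CPM (median 126) in caudal and 60.8 to 126 (median 92.4) in rostral hippocampus. The lowest striatum library lay above the highest hippocampal library, and the log2 fold was 1.72 ± 0.07 (adjusted p = 8.25e-30). FAT3 rose by 0.33 ± 0.10 (adjusted p = 0.00368), a call that was lost without the 10 males described below (0.06, adjusted p = 0.751). FAT4, which pairs with DCHS1, had a median of 1.10 CPM in striatum against 3.53 and 4.60 in caudal and rostral hippocampus, a log2 fold of -1.79 ± 0.29 (adjusted p = 3.22e-07). It reached the count minimum in 3 striatum, 17 caudal and 22 rostral libraries. So FAT4 entered the test, and the count of lower members, through the hippocampal libraries, where it was higher. DCHS1 (-0.34 ± 0.21, adjusted p = 0.153) and DCHS2 (0.34 ± 0.22, adjusted p = 0.171) did not pass the test, although DCHS1 passed without bird 260 (adjusted p = 0.0494).

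CELSR1, CELSR2 and CELSR3 are receptors of planar polarity that also steer axon tracts, and all 3 were lower in striatum. CELSR3, the neuronal one, had 18.7 to 64.8 CPM in striatum (median 37.2), 39.2 to 116 in caudal (median 82.1) and 50.1 to 112 in rostral hippocampus (median 68.7). Its groups overlapped, but the log2 fold of -1.01 ± 0.08 (adjusted p = 2.87e-16) had the same direction in 24 of 24 birds. CELSR1 fell by 1.12 ± 0.14 on the log2 scale (adjusted p = 4.96e-10) and CELSR2 by 0.70 ± 0.14 (adjusted p = 1.26e-05).

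PCDH15 and CDH23 are best known as the pair of proteins that form the tip links of hair cells in the ear. PCDH15 had 5.08 to 24.1 CPM in striatum (median 10.6), 46.5 to 101 in caudal (median 69.6) and 47.5 to 106 in rostral hippocampus (median 65.2). Striatum and hippocampus did not overlap, with a log2 fold of -2.66 ± 0.10 (adjusted p = 7.97e-30), and the highest striatum library was that of bird 6. CDH23 went the same way, from medians of 17.6 CPM in caudal and 16.0 in rostral hippocampus to 3.92 in striatum (-2.07 ± 0.21, adjusted p = 5.08e-13). PCDH20 had 2.16 to 26.4 CPM in striatum (median 7.79) against 16.9 to 60.1 (median 32.3) in caudal and 30.8 to 110.2 (median 71.9) in rostral hippocampus. A single striatum library, of bird 16, reached into the caudal range, and the log2 fold was -2.56 ± 0.14 (adjusted p = 1.24e-23). CDH13, a cadherin tethered to the membrane by a lipid anchor, had medians of 14.3, 32.6 and 30.4 CPM in striatum, caudal and rostral hippocampus (-1.04 ± 0.13, adjusted p = 2.43e-10).

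Delta-2 protocadherins split. PCDH10, which is known for roles in striatal and amygdalar wiring in mice, had 261 to 485 CPM in striatum (median 349), 125 to 265 in caudal (median 184) and 111 to 256 in rostral hippocampus (median 191). Only the top of the caudal range reached the lowest striatum library, and the log2 fold was 0.95 ± 0.05 (adjusted p = 1.33e-24), higher in striatum in 24 of 24 birds. PCDH17, a presynaptic protocadherin of corticostriatal circuits in mice, rose by 0.55 ± 0.07 (adjusted p = 9.81e-10). PCDH8 (-0.78), PCDH19 (-0.63) and PCDH18 (-0.58) were lower. Of the delta-1 protocadherins, PCDH11X (-0.61), PCDH1 (-0.60) and PCDH7 (-0.24) fell in striatum, and PCDH9 did not pass the test (-0.11 ± 0.10, adjusted p = 0.344). PCDH7 differed between the hippocampal parts by 0.56 (caudal minus rostral), so its value does not place striatum below the rostral part.

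Among the catenins, CTNNB1 rose and CTNNA2 fell. CTNNB1 had 1486 to 2989 CPM in striatum (median 2297), 1048 to 1503 in caudal (median 1142) and 905 to 1213 in rostral hippocampus (median 1027). The groups met only where the highest caudal library, of bird 260, passed the lowest striatum library, of bird 16. The log2 fold was 1.02 ± 0.05 (adjusted p = 7.36e-27), in 24 of 24 birds. CTNNA2 had medians of 383, 589 and 586 CPM in striatum, caudal and rostral hippocampus, and was lower in striatum in all 24 birds (-0.63 ± 0.05, adjusted p = 4.35e-17). CTNND1, or p120-catenin, was also lower (-0.63 ± 0.09, adjusted p = 4.89e-08), as was CTNNA1 (-0.24 ± 0.08, adjusted p = 0.00724). CTNNA1 had medians of 45.3, 63.7 and 48.1 CPM in striatum, caudal and rostral hippocampus. CTNND2, the delta-catenin of neurons, did not pass, at 0.07 ± 0.04 (adjusted p = 0.124). CTNNBIP1, which blocks the binding of beta-catenin to TCF factors, fell in striatum by 0.97 ± 0.06 (adjusted p = 3.36e-21), and CTNNBL1 rose by 0.21 ± 0.05. CDH2 fell by 0.29 ± 0.04 (adjusted p = 3.74e-09), and CDH4, or R-cadherin, had 0.05 ± 0.08 (adjusted p = 0.556).

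Genes of other cell types were compared between striatum and hippocampus too, where 30.9% of all genes were called higher and 33.6% lower in striatum. Of the oligodendrocyte genes, MBP (1.51 ± 0.12, adjusted p = 7.68e-16) and UGT8 (adjusted p = 4.71e-15) were higher in striatum. Of 5 astrocyte genes measured 3 were lower in striatum, both tested genes of oligodendrocyte precursors were lower, and 3 of 4 tested genes of choroid plexus and ependyma were lower. Of 7 endothelial genes tested 2 were higher and 1 lower, and of 5 genes of pericytes and meninges 2 were lower. Their part in the results was not tested.

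Genes that work with cadherins also went both ways, in a comparison that called 30.9% of all genes higher and 33.6% lower. Among the partners at adherens junctions, the actin linker VCL (0.47), the protease ADAM10 (0.27) and the scaffold MAGI1 (0.23) rose in striatum. In the same list 7 genes fell, led by the adhesion molecules NECTIN1 (-1.88) and NECTIN3 (-1.19), the catenin relative ARVCF (-0.46) and the scaffold MAGI2 (-0.42). Of 11 planar polarity partners of the CELSR and FAT proteins, ANKRD6 (0.57), DVL3 (0.27) and FJX1 (0.20) rose, and 4 fell: PRICKLE1 (-3.18), PRICKLE2 (-2.74), VANGL2 (-0.61) and VANGL1 (-0.25). Of the 9 members of the WAVE complex and its partners, 6 rose in striatum, among them WASF3 (1.86), NCKAP1 (0.32), WASF1 (0.28) and CYFIP2 (0.28), and BRK1 fell (-0.27). Of 6 tested genes of the wider cadherin superfamily, DSC1 (1.37 ± 0.36) and CLSTN2 (0.40) rose, and the receptor kinase RET (-1.57), CLSTN3 (-0.67) and CLSTN1 (-0.12) fell. RET did not pass the filter on low counts among the striatum libraries alone, and DSC1 did not pass it in any region alone.

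Caudal and rostral hippocampus also differed in many members, by smaller amounts. CDH12, PCDH7, CDH4, FAT3 and FAT1 were higher in the caudal part, and PCDH20, CDH11, CTNNBIP1, PCDH18, CDH20 and CDH8 were higher in the rostral part. Of 41 members, 23 passed the test, against 49.4% of all genes, with 11 higher in the caudal part (25.1% of all genes) and 12 lower (24.2%). The 56.1% of members called lay close to the share of all genes. Of the called members only PCDH20 reached a log2 fold of 1 in size, where 3.53% of all genes were called at that size.

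**Figure D3:**
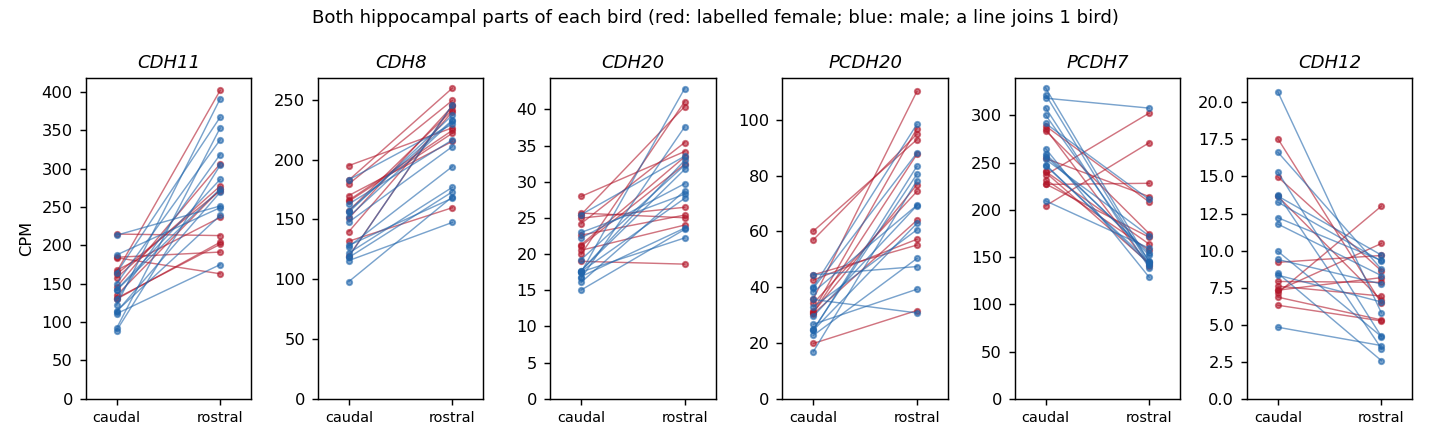
Level in CPM in caudal and rostral hippocampus of the same bird (each line 1 bird; red, labelled female; blue, labelled male) for 6 members. The line of CDH8 went up from caudal to rostral in 24 of 24 birds, that of PCDH20 in 23, and that of PCDH7 went down in 21.

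PCDH20 was lower in the caudal part in 23 of 24 birds, with a log2 fold of -1.05 ± 0.13 (adjusted p = 8.1e-09), from the medians of 32.3 and 71.9 CPM given above. CDH11 had 89.0 to 215 CPM in caudal (median 144) and 163 to 402 in rostral hippocampus (median 272). Its groups overlapped, and 22 of 24 birds were lower in the caudal part (-0.86 ± 0.08, adjusted p = 1.93e-12). CDH8 was lower in the caudal part in all 24 birds (-0.54 ± 0.05, adjusted p = 1.88e-12), and CDH20 in 22 of 24 (-0.54 ± 0.09, adjusted p = 3.58e-06). Among protocadherins, PCDH18 (-0.55), PCDH9 (-0.42), PCDH17 (-0.35) and PCDH19 (-0.32) were lower too. CTNNBIP1 was lower in 23 of 24 birds (-0.59 ± 0.06, adjusted p = 4.49e-10), CTNNAL1 by 0.33, and the smallest differences were PCDH1 (-0.22) and CTNND2 (-0.21).

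In the other direction, PCDH7, a delta-1 protocadherin, had 204 to 329 CPM in caudal (median 256) and 129 to 308 in rostral hippocampus (median 158). It was higher in the caudal part in 21 of 24 birds (0.56 ± 0.08, adjusted p = 8.37e-08). CDH12 was higher in 20 of 24 birds (0.58 ± 0.14, adjusted p = 0.000451). CDH4 (0.48 ± 0.09, adjusted p = 2.2e-05) and CDH2 (0.18 ± 0.04, adjusted p = 0.000585) were both higher, so both type I cadherins tested had more RNA in the caudal part. FAT3 (0.46), FAT1 (0.41), CTNNA1 (0.40), CDH9 (0.37), CELSR3 (0.22), CTNNB1 (0.18) and CTNNBL1 (0.16) complete the list. The value of CDH9 averages unlike sexes: it was higher in the caudal part in 2 of 11 females and 12 of 13 males. Leaving out a single bird ended 5 of the calls between the hippocampal parts. CELSR3 did not pass without any 1 of 8 birds (4, 7, 8, 12, 13, 15, 18 and 262), with an adjusted p of up to 0.0773, and CDH9 without any 1 of birds 2, 7, 12 and 15 (up to 0.063). CELSR3 also lost its call without the filter on low counts and without the bird block, and CDH9 without the bird block. PCDH1 did not pass without any 1 of birds 3, 10, 13, 19, 20, 21 and 22 (up to 0.0815), PCDH19 without any 1 of birds 2, 10, 15, 18, 19, 22 and 262 (up to 0.0929), and CTNNBL1 without bird 8 (0.0502). CELSR2 (0.34 ± 0.15, adjusted p = 0.0531) passed when any 1 of 6 birds was left out (1, 3, 10, 11, 20 and 21), and CDH7 (-0.29 ± 0.14, adjusted p = 0.0831) when any 1 of birds 2, 7 and 19 was. Both also passed with limma voom and with hippocampal libraries alone. CELSR2 passed as well with DESeq2, RLE factors, no bird block and without the striatum library of bird 11.

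Partner genes in this comparison moved by similar amounts. VCL (0.42), MAGI2 (0.25) and MAGI1 (0.20) were higher in the caudal part and NECTIN1 (-0.54) lower. Of the planar polarity genes ANKRD6 was higher (0.74), and FZD3 (-0.88), DVL1 (-0.71), PRICKLE2 (-0.45), VANGL1 (-0.34) and FJX1 (-0.26) were lower. Of the WAVE genes WASF1 was higher (0.20), and WASF3 (-0.50), CYFIP2 (-0.33), ABI2 (-0.24) and NCKAP1 (-0.15) were lower. RET was higher (0.84) and the calsyntenins CLSTN2 (-1.32) and CLSTN1 (-0.53) lower. Of the 5 astrocyte genes 4 were lower in the caudal part (24.2% of all genes). All 4 tested genes of choroid plexus and ependyma were higher there (25.1% of all genes). Summed over 6 choroid and ependymal genes, caudal libraries had 17.5 to 2656 CPM (median 83.2), against 6.44 to 44.5 in rostral hippocampus, and CLIC6, 1 of the 6, was at 0 in every library.

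Leaving out 10 males with high choroid signal in the caudal library, as described for the sexes below, left 18 of 41 members called between the hippocampal parts, against 35.6% of all genes, and 31 between striatum and hippocampus, against 47.3%. Between the parts 14 calls were kept, FAT1, CDH8, CDH11, CDH20, PCDH7 and PCDH20 among them, and 9 were lost. CDH9 then had -0.04 (adjusted p = 0.918) in place of 0.37 and PCDH1 -0.05 (0.802) in place of -0.22. The other calls lost were those of CTNNAL1 (adjusted p = 0.425), FAT3 (0.268), CTNNBL1 (0.236), CTNNB1 (0.15), PCDH19 (0.102), CDH4 (0.0823) and CDH12 (0.0532, at a log2 fold of 0.55). Members that passed in this setting but not with all birds were DCHS1 (0.92 ± 0.34, adjusted p = 0.0334), CDH23 (0.61), CTNNA2 (0.23) and CDH7 (-0.59). Of these, CDH7 also passed in other settings, as given above. Between striatum and hippocampus, FAT3 had 0.06 (adjusted p = 0.751), CTNNA1 -0.11 (0.481), PCDH7 -0.18 (0.207) and CTNNAL1 -0.30 (0.0973), and these 4 lost their calls.

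Several members lie near each other in the deposited coordinates, which may be those of another species' genome. In the deposited table, with a build that is not given in the sources used here and gene identifiers of which 0 matched the species' RefSeq table, CDH12, CDH10 and CDH9 follow one another at gaps of 0.666 and 0.842 Mb, and CDH20 lies 2.40 Mb beyond CDH9. All 4 were higher in striatum, by the log2 folds given above. Between the hippocampal parts CDH12 was higher and CDH20 lower in the caudal part. CDH9 was called higher there, but in 2 of 11 females against 12 of 13 males. PCDH9, PCDH20, PCDH17 and PCDH8 form another run, at gaps of 1.85, 1.39 and 2.01 Mb. In striatum PCDH17 was higher while its neighbours PCDH20 and PCDH8 were lower. PCDH18 and PCDH10, 1.42 Mb apart, also went opposite ways in striatum, and CDH23 and PCDH15, 2.03 Mb apart, were both lower.

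Males and females were compared in each region separately, giving 3 sex comparisons. In caudal hippocampus 0 of 41 members passed the test, against 2.69% of all genes. DESeq2 and limma voom also called 0, and 6 members had an unadjusted p under 0.05, against 13.1% of all genes. The lowest p belonged to CDH22, which had 10.3 to 108 CPM in females (median 64.5) and 13.6 to 175 in males (median 121). Its groups overlapped, and 12 of 13 males lay above the female median (0.88 ± 0.28, adjusted p = 0.0968). Without bird 8, a male, CDH22 passed at 0.98 (adjusted p = 0.00779). Next came CDH20 (-0.30 ± 0.11, adjusted p = 0.171) and CDH18 (0.49 ± 0.21, adjusted p = 0.289).

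In rostral hippocampus 6 of 40 members tested passed, against 5.29% of all genes, and all 6 were lower in males. That compares with 1.94% of all genes lower in males, and with 0 members and 3.34% of all genes higher. CDH22 had 26.8 to 268 CPM in females (median 135) and 9.24 to 131 in males (median 37.4). The ranges overlapped, but none of the 13 males lay above the female median, with a log2 fold of -1.44 ± 0.35 (adjusted p = 0.0139). CDH9 had 15.9 to 142 CPM in females (median 86.4) and 18.6 to 93.7 in males (median 37.1), with 1 of 13 males above the female median (-1.10 ± 0.27, adjusted p = 0.0155).

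PCDH9, whose female median was 141 CPM and male median 81.5, fell by 0.64 ± 0.15 (adjusted p = 0.0108). CDH10 had medians of 225 and 151 CPM in females and males (-0.50 ± 0.13, adjusted p = 0.0205). PCDH10 had medians of 236 and 166 CPM (-0.43 ± 0.12, adjusted p = 0.0297), and CTNND2 of 529 and 420.4 (-0.31 ± 0.08, adjusted p = 0.0205). In these 3 genes, too, 0 of 13 males lay above the female median. PCDH10 did not pass without any 1 of birds 1, 6, 7, 10, 14, 18, 19 and 20 (adjusted p up to 0.0627). Without bird 260, whose W counts went against its label, the log2 folds were -1.50 for CDH22, -1.12 for CDH9, -0.64 for PCDH9, -0.47 for CDH10, -0.44 for PCDH10 and -0.32 for CTNND2, with adjusted p from 0.00964 to 0.0313. The junction scaffold TJP1 was lower in males here (-0.50) and FJX1 higher (0.58).

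In striatum 0 of 39 members tested passed between the sexes, against 1.69% of all genes. DESeq2 and limma voom called 0 as well, and 2 members had an unadjusted p under 0.05, against 5.19% of all genes. PCDH20 came closest, with 2.16 to 10.6 CPM in females (median 6.66) and 6.90 to 26.4 in males (median 9.88). All 13 males lay above the female median, and the log2 fold was 0.77 ± 0.25 (adjusted p = 0.186). CDH11 (-0.21 ± 0.09, adjusted p = 0.824) and PCDH17 (-0.22 ± 0.12, adjusted p = 0.999) followed.

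Whether the sex difference itself differed between the hippocampal parts was tested as an interaction over all 72 libraries. CDH22, CDH9, CDH18, PCDH10 and CTNND2 passed, 5 of 41 members against 2.53% of all genes. In all 5 the male-minus-female difference was higher in the caudal than in the rostral part, as in 1.48% of all genes, and 0 members were called the other way, against 1.06% of all genes. CDH22 had the largest value of the 5, with an interaction of 2.54 ± 0.47 on the log2 scale (adjusted p = 0.00309). In females CDH22 was higher in the caudal than in the rostral part in 1 of 11 birds, and in males in 10 of 13. CDH9 (1.41 ± 0.28, adjusted p = 0.00458) was higher in the caudal part in 2 of 11 females and 12 of 13 males.

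**Figure D4:**
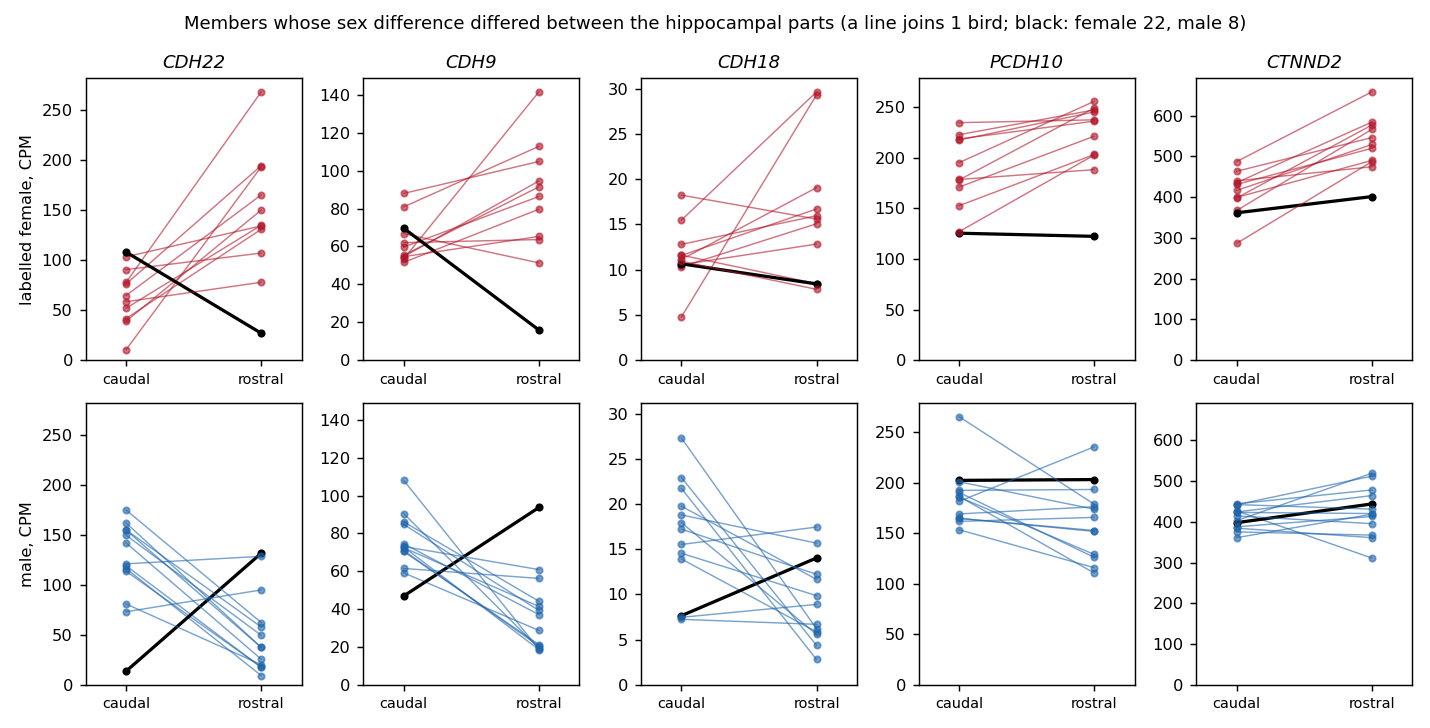
Level in CPM in caudal and rostral hippocampus of the same bird for 5 members, by labelled sex (thin lines, birds; black lines, bird 22 among the females and bird 8 among the males). For CDH22 the caudal value was the higher one in 1 of 11 females and 10 of 13 males, and the 2 black lines run against most birds of their sex.

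CDH18, a low member with rostral medians of 15.6 CPM in females and 8.90 in males and caudal medians of 11.1 and 17.2, had an interaction of 1.28 ± 0.35 (adjusted p = 0.0348). PCDH10 had 0.47 ± 0.11 (adjusted p = 0.0197) and CTNND2 0.33 ± 0.10 (adjusted p = 0.0481). Both lost their calls without the bird block, and CTNND2 also without the filter on low counts. CTNND2 was lower in the caudal part in all 11 females and in 7 of 13 males. The call of CDH18 was lost without any 1 of 11 birds (2, 3, 4, 6, 7, 9, 10, 17, 18, 19 and 20, adjusted p up to 0.103), and that of CTNND2 without any 1 of 17 birds (adjusted p up to 0.115), which are all but birds 4, 8, 11, 12, 16, 22 and 261. Without bird 260, CTNND2 did not pass (0.31, adjusted p = 0.0811), and the other 4 kept their calls, with CDH22 at 2.62 (adjusted p = 0.00697).

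Among the birds that did not follow their sex were birds 8 and 22. Bird 8, a male, had 13.6 CPM of CDH22 in the caudal and 131 in the rostral part, and 46.9 and 93.7 CPM of CDH9. Bird 22, a female, had 108 and 26.8 CPM of CDH22, and 69.6 and 15.9 of CDH9. Over the 9713 tested genes outside the members, the caudal-minus-rostral difference of bird 8 correlated at r = 0.66 with the mean of the females and 0.26 with that of the other males. That of bird 22 correlated at 0.52 with the other females and 0.69 with the males (a description across genes, which are no independent replicates). Birds 11 and 261, both males, also had more CDH22 in the rostral part (94.8 against 73.0 CPM and 128 against 121), and their differences correlated at 0.38 and 0.52 with the females and at 0.33 and 0.46 with the other males. Without bird 8, 9 members passed the interaction, against 6.35% of all genes, and without bird 22, 10, against 5.1%.

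The summed level of markers of choroid plexus and ependyma in the caudal libraries was 17.5 to 92.9 CPM in females (median 53.8) and 20.5 to 2656 in males (median 735). Of the 13 males 10 lay above every female, at 171 to 2656 CPM, and birds 8, 262 and 261 did not, at 20.5, 40.4 and 60.1. The secreted carrier TTR was higher in males in caudal hippocampus (5.83, adjusted p = 0.000141). The other 3 markers tested did not pass there: KL had 1.39 (adjusted p = 0.0736), AQP1 0.03 (0.975) and FOXJ1 -0.52 (0.453). The interaction of KL was 3.11 and that of the ciliary factor FOXJ1 -2.66, and both passed. Those of TTR (3.54, adjusted p = 0.294) and AQP1 (0.55, adjusted p = 0.682) did not. In rostral libraries the summed level was 7.56 to 44.5 CPM in females and 6.44 to 28.2 in males. KL was lower in males there (-1.42, adjusted p = 0.0263), and AQP1 did not pass (-0.49, adjusted p = 0.557). TTR and FOXJ1 were not tested between the sexes in that part.

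With the 10 males left out, an alternative chosen after seeing the data, 11 females and 3 males remained. The interaction then called 0 of 41 members, against 0.0% of all genes, and the rostral sex comparison 0, against 0.668%. At an unadjusted p under 0.05 the interaction had 1 of 41 members, against 204 of 10111 genes. The rostral sex comparison had 3 of 41 members at that level, against 455 of 9574 genes. CDH22 had an interaction of 0.90 ± 0.77 (adjusted p = 1), CDH9 of 0.58 ± 0.46, CDH18 of 0.41 ± 0.50, PCDH10 of 0.11 ± 0.17 and CTNND2 of 0.14 ± 0.16. In the rostral part, CDH22 had -0.62 ± 0.48, CDH9 -0.50 ± 0.43 and PCDH9 -0.24 ± 0.20. Rostral CDH22 ran from 9.24 to 94.8 CPM (median 37.4) in the 10 males and had 20.1, 128 and 131 CPM in the other 3. The part of the choroid signal, or of the cut of the tissue, in the sex results was not tested.

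The corresponding interaction between striatum and hippocampus called 0 of 41 members, against 0.0% of all genes. Here limma voom also called 0 members, while 3 members had an unadjusted p under 0.05, against 3.61% of all genes. These were PCDH20 (0.95 ± 0.26), CELSR3 (-0.40 ± 0.16) and PCDH17 (-0.32 ± 0.14), with adjusted p from 0.637 to 1.

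Birds of one sex were compared for a level shared by their 3 regions. PCDH10, CDH8 and CELSR3 passed, 3 of 41 members against 13.0% of all genes. PCDH10 (adjusted p = 0.00266) was lowest among females in bird 22, at 0.68, 0.56 and 0.83 of the female mean in caudal hippocampus, rostral hippocampus and striatum, and highest in bird 14, at 1.19, 1.08 and 1.31. CDH8 (adjusted p = 0.00292) was lowest among males in bird 3, at 0.84, 0.73 and 0.79 of the male mean, and highest in bird 261, at 1.14, 1.15 and 1.31. For CDH8, 9 of 13 males but only 2 of 11 females lay on the same side of their mean in all 3 regions. Without the 10 males with high choroid signal, CDH8 did not pass (adjusted p = 0.242). CELSR3 (adjusted p = 0.0182) had its highest male value in bird 16, at 1.15, 1.45 and 1.82, and its lowest in bird 20, at 0.70 to 0.73. Among birds labelled female, CELSR3 was lowest in bird 260, at 0.73 averaged over the 3 regions, and highest in bird 1, at 1.38. Without bird 16, CELSR3 did not pass (adjusted p = 0.0551).

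**Figure D5:**
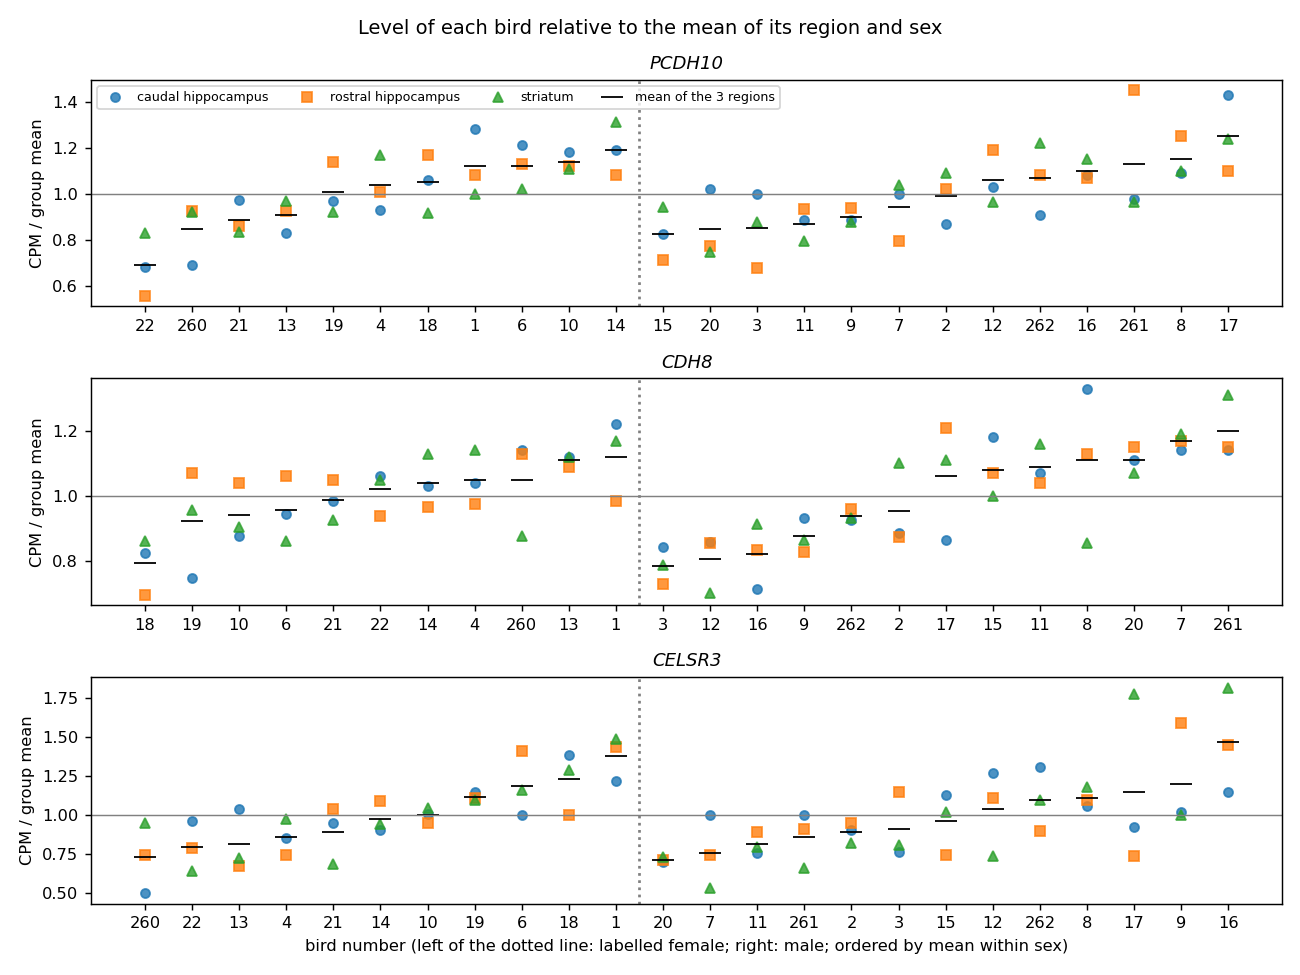
Level of PCDH10, CDH8 and CELSR3 in each bird, as CPM divided by the mean of its sex in the same region, with 1 point for each of the 3 regions. The spread of a bird's 3 points varies: CELSR3 lies at 0.70 to 0.73 in bird 20 and at 1.15 to 1.82 in bird 16, both males.

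The next members in the bird test were CDH5 (adjusted p = 0.0521), CTNNBIP1 (0.0547), FAT3 (0.138), PCDH11X (0.174) and CTNNBL1 (0.18), none of which passed. Leaving out a single bird brought CDH5 past the threshold for 5 birds and CTNNBIP1 for 9. It also moved them the other way, with an adjusted p of up to 0.280 for CDH5 and 0.249 for CTNNBIP1. CDH5 was high in bird 11, at 2.03, 2.02 and 5.10 of the male mean, and low in bird 260, at 0.00, 0.32 and 0.25 of the female mean. Its counts were few, with a mean of 2.24 CPM.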

How the data were processed

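RNA of 72 libraries was measured, 3 regions in each of 24 birds. The values are raw counts of each gene, as the authors deposited them. HISAT2 and StringTie were used, per the submitters' processing notes, with no version; build, annotation, strand and counting tool: not given in the sources used here. Of 47 member symbols 46 were in the RefSeq table of the species, and 0 gene identifiers matched. Levels are CPM scaled with TMM factors. No table of sequences was used here.

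The members and the marker and partner lists were chosen with earlier results of these data known. Genes were tested with edgeR 4.0.16 in R 4.3.3 (quasi-likelihood test, filterByExpr at 10 counts and a total of 15, Benjamini-Hochberg adjustment over all genes tested, threshold 0.05), and all adjusted p-values of single genes come from this test. Errors of log2 folds are standard errors. Region contrasts, interactions and the bird test used all 72 libraries with region by sex and bird; striatum was set against the mean of both hippocampal parts. Sexes were compared within a region, 1 library per bird.

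The labels number the birds, and that number pairs the libraries. Deviations of the same bird had median correlations of 0.159 (caudal with rostral), 0.138 (caudal with striatum) and 0.153 (rostral with striatum), where different birds had -0.00698, -0.0026 and -0.00377. Every pair of libraries in a group differed beyond sampling noise, with a chi-square of at least 5.58 times its degrees of freedom.

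Named are up to 10 called members per direction in a region comparison (mean of at least 1 CPM), called members in a sex comparison or interaction (else the 3 with the lowest p), the 8 lowest p in the bird test, the most abundant member of each subfamily, members below the filter, and up to 4 called partners per direction and list. Other members are named to complete a subfamily, and some marker and partner genes are not reported here. Alternatives were RLE factors, DESeq2 1.42.0, limma voom (limma 3.58.1), no filter, no bird block, and leaving out each bird or the striatum library of bird 11. The fits of striatum versus hippocampus and of the sexes in rostral hippocampus were first tested on simulated data with known changes. Those data held no bird effect, and the other comparisons, the interactions and the bird test were not simulated.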

Additional observations from a re-analysis of the deposited data

Results flagged for a closer look

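The difference between males and females was not the same in both hippocampal parts for 5 members, by a test of the difference itself. As caudal minus rostral values of the male-minus-female log2 difference, they had 2.54 (CDH22), 1.41 (CDH9), 1.28 (CDH18), 0.47 (PCDH10) and 0.33 (CTNND2). In rostral hippocampus all 5 had lower medians in males, though CDH18 did not pass there (-0.80 ± 0.26, adjusted p = 0.0734). In caudal hippocampus CDH22, CDH9 and CDH18 had higher medians in males, but 0 of 41 members passed there. PCDH10 differed little in the caudal part (0.02 ± 0.10), and CTNND2 had nearly equal medians, 416 CPM in females and 415 in males. The summed choroid and ependymal level of the caudal libraries was above every female in 10 of 13 males. Its single genes went both ways in this contrast, with KL at 3.11 and FOXJ1 at -2.66, and their part was not tested.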

How the results depend on the processing

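Counts between regions moved by less than 1.5 times in every setting run, with 35 to 36 members called between striatum and hippocampus and 20 to 24 between the hippocampal parts when 1 bird was left out. Without the replicate block, the sex by hippocampal part interaction called 3 members, all higher, in place of 5, with PCDH10 and CTNND2 lost. In that setting CDH5 had 0.0408 between striatum and hippocampus in place of -0.11. Leaving out 1 bird gave 0 to 1 members between the sexes in caudal hippocampus (1 without bird 8), 5 to 10 in rostral hippocampus (0 to 2 higher), 3 to 10 in the interaction (3 to 7 higher, 0 to 3 lower) and 3 to 5 in the bird test. In rostral hippocampus DESeq2, all libraries with bird as a random effect (limma voom) and no filter each called 1 member higher in males. limma voom called 1 member lower in the interaction and 9 in the bird test, where RLE factors gave 5 and leaving out the striatum library of bird 11 gave 5.

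Directions turned for uncalled values, and for the called CDH9. CDH4 between striatum and hippocampus was -0.00258 with DESeq2, -0.00262 with RLE factors and -0.000204 without the 10 males of high choroid signal. Between the hippocampal parts, CDH13 was -0.0213 with hippocampal libraries alone and -0.0370 to 0.0556 with 1 bird left out, PCDH10 -0.0548 to 0.00366 and PCDH15 -0.000301 to 0.0869. Leaving out the 10 males, chosen after seeing the data, gave 0 members in the rostral sex comparison (0 lower) and 0 in the interaction (0 higher), and between the hippocampal parts CDH10 -0.0442, CDH9 -0.0392, CDH22 -0.63, CDH13 -0.13, CELSR1 0.00815, CDH18 -0.22 and DCHS2 0.84. That setting has fewer males; the cause was not tested otherwise. Without the striatum library of bird 6, also chosen after seeing the data, the interaction called 4 members (CTNND2 adjusted p = 0.054). DESeq2 was not run for the interactions and the bird test. Depth limits the low members: FAT4, DCHS1, DCHS2 and CDH5 had means under 5 CPM.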
